A study of Homo sapiens with 2 samples.

Results

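Axon guidance ligands and receptors were examined in Molm13 (MOLM-13), a human acute myeloid leukemia (AML) cell line. The genes were chosen by their names, as the semaphorins SEMA3 to SEMA7, the plexins, NRP1 and NRP2, the EPH receptors and ephrins, the SLIT and ROBO genes, the netrins and netrin-G genes, the UNC5 receptors, DCC, NEO1, RGMA, RGMB and DAPK1. This gave 75 of the 50868 genes in the table, all protein-coding in GENCODE 44. RNA-seq held 1 library of vector control cells (Vector) and 1 of cells labelled as over-expressing UNC5B (OE-UNC5B), in which UNC5B had no reads, both grown in the same medium with fetal bovine serum. According to the paper's methods, the lentiviral plasmid carried FLAG-tagged UNC5B behind the CMV promoter with mCherry and a puromycin marker, and infected cells were screened with puromycin. Whether single clones were used is not stated. The paper's stated aim for RNA-seq was to check whether UNC5B affects genes tied to adhesion and proliferation. The counts compare the 2 labelled libraries.

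Axon guidance genes encode secreted or membrane-bound cues and the receptors that read them, and are best known from growing nerve fibers. Semaphorins signal through plexins, with neuropilins as co-receptors for most class 3 semaphorins. Ephrins bind EPH receptor tyrosine kinases on neighboring cells, SLIT ligands bind ROBO receptors, and netrins bind DCC, neogenin (NEO1) and the UNC5 family. The same families act in vessel growth, leukocyte migration and cell adhesion.

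The promoters of called plexins and of a called semaphorin are shown first, since genes of a ligand and receptor family moved in both directions. They are the 250 bases before the RefSeq start of PLXNC1 and PLXNA2, called higher, and SEMA6C, called lower, 5′ to 3′ on the strand of the gene. PLXNA2 (6 and 21 reads) and SEMA6C (33 and 18 reads, Vector first) were called on few reads. Capitals mark the GC box letters GGGCGG on either strand (CCGCCC on the other), with overlapping matches merged. They lie at chr12:94148327-94148576 (plus strand) for PLXNC1, chr1:208244385-208244634 (minus strand) for PLXNA2 and chr1:151146632-151146881 (minus strand) for SEMA6C of GRCh38.p14.
PLXNC1: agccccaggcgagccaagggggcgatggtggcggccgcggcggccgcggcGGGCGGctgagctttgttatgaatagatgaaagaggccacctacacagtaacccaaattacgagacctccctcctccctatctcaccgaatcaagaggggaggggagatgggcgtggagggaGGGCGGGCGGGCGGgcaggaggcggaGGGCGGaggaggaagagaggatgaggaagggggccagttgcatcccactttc
PLXNA2: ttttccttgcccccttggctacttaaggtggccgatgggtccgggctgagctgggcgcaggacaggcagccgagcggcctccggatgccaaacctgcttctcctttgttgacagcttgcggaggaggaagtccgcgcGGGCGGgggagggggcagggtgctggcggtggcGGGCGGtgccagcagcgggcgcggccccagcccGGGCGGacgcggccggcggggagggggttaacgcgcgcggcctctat
SEMA6C: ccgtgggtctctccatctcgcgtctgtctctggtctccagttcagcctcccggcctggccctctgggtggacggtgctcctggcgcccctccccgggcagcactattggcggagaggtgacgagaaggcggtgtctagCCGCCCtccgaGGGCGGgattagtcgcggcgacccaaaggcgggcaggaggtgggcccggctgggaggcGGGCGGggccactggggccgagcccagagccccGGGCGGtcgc
PLXNC1 held 5 matches, PLXNA2 held 3 and SEMA6C held 4. At least 1 was held by 42.6% of 35116 RefSeq promoters of this length. The share with as many matches, or among promoters of like GC content, was not counted. GC content was 65.2%, 72.4% and 73.2%, and the median over all promoters was 58%. TATAAA and CACGTG, read on either strand, were in none of the 3 and in 10.7% and 6.34% of all promoters. GAGGAAGT, read on either strand, was in PLXNA2 only among the 3, and in 2.17% of all promoters. By symbol, 5 of the 6 called genes matched a RefSeq promoter, SEMA3A being the exception, and those of EPHB2 and EFNA3 held 1 and 2 GC boxes.

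UNC5B itself had 0 reads in both libraries, the library labelled OE-UNC5B included. The main transcript of UNC5B, on GRCh38 chromosome 10 (71212570 to 71302864, plus strand), has 17 exons and 6841 nt, over which a floor of 3 reads would be 0.0320 and 0.0280 FPKM (reads per kilobase of gene, scaled to library size). The counts therefore do not show over-expression, and directions rest on the labels. The libraries held 13715566 and 15637137 counted reads. Myeloid markers were present, with 12 of 14 at 1 FPKM or more in both libraries. Of the 13 tested, MPO and LYZ, which encode myeloperoxidase and lysozyme, fell (log2 -1.35 and -1.36), MEF2C, a transcription factor, rose (log2 1.32), and the median was 0.17. Differences have no replicate check, since each group is 1 library. The exact binomial test on reads used here compares the libraries alone, its intervals (95%, from reads) hold only counting error, and fewer cells with a transcript cannot be told apart from less transcript per cell. Pairs of values below give Vector first and the library labelled OE-UNC5B second.

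Most axon guidance genes were near or below detection. Of the 75 genes, 11 were at 1 FPKM or more in both libraries and are called expressed, 22 had at least 10 reads in all but were under 1 FPKM in 1 or both libraries, 20 had 1 to 9 reads, and 22 had 0 reads. The expressed genes were SEMA3G, SEMA4A, SEMA4C, SEMA4D, PLXNA1, PLXNB2, PLXND1, EFNA5, EFNB1, EPHB3 and EPHB4. No netrin, UNC5, SLIT, ROBO or RGM gene was among them. Besides UNC5B, the genes with 0 reads were UNC5A, DCC, NTN3, SLIT2, SLIT3, ROBO2, ROBO4, EFNA1, PLXNA4, SEMA3E, SEMA5A, SEMA5B, SEMA6A, SEMA6D, EPHB1, EPHA3, EPHA4, EPHA5, EPHA6, EPHA8 and EPHA10. The number expressed depends on the scale, with 19 genes at 1 or more when reads were divided by the length of the main transcript. The genes added on that scale were ROBO3 (1.08 and 1.48), NRP1, PLXNB1, SEMA3A, SEMA6B, SEMA7A, EFNA4 and EPHA1, so a ROBO gene was then included.

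**Figure D1:**
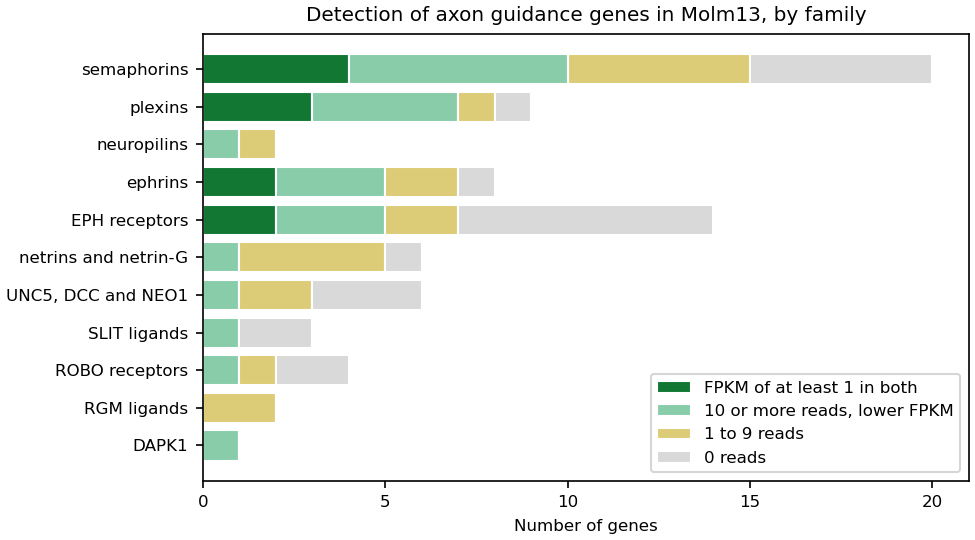
Number of axon guidance genes (x axis) in each family (y axis), split by detection in the 2 libraries. The 11 expressed genes lie in the semaphorin, plexin, ephrin and EPH families, and 22 genes had 0 reads.

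Of the 33 genes with at least 10 reads, 6 were called, by a difference of 2-fold or more together with an adjusted p-value below 0.05 (exact binomial test, Benjamini-Hochberg over 15384 genes). SEMA3A, PLXNC1, PLXNA2 and EPHB2 rose from Vector to the library labelled OE-UNC5B, and SEMA6C and EFNA3 fell. With an assumed coefficient of variation of 0.1 between libraries SEMA3A and PLXNC1 alone were still called, and with 0.2 no axon guidance gene was. At 0.1, 418 higher and 376 lower were called among all 15384 tested genes, and at 0.2 131 and 121. PLXNA2 and EFNA3 were also not called without a filter on reads. The 6 genes were 18.2% of the genes tested, against 6.78% of all tested genes (3.39% higher and 3.39% lower). SEMA3A and PLXNC1 were the 2 called among 20 genes with 100 reads or more in all, where 4.61% of all tested genes were called. The other 4 came from 13 genes with fewer reads, where the background was 12.7%. By fold alone, 4 genes were higher (background 5.15%) and 4 lower (background 4.79%), which is 24.2% against 9.94%. At any fold, 15 genes (45.5%) passed the read test, 9 higher and 6 lower, and 47% of all tested genes did. The median log2 difference was 0.12, against -0.01 over all tested genes. Without the minimum of 10 reads, the median over the 53 axon guidance genes with reads was -0.33, opposite in sign, and that over all genes with reads was -0.04. For 15 of the 33 genes the interval lay wholly within 2-fold. Depth was modest, with medians of 89 and 105 reads, against 269.5 and 316 over all tested genes.

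Among the semaphorins, SEMA3A alone was called higher. SEMA3A is a secreted semaphorin that repels axons through NRP1 and A-type plexins, and lies on chromosome 7 (83955777 to 84492724, minus strand). It had 115 and 280 reads (0.798 and 1.70 FPKM), and its log2 difference was 1.04 (interval 0.73 to 1.37, adjusted p = 8.42e-11 in the exact binomial test). Of its receptors, PLXNA2 was called, on few reads, and NRP1, PLXNA1 and PLXNA3 were not. NRP1 had 158 and 203 reads (log2 0.12, interval -0.18 to 0.43), and NRP2 had 3 and 0 reads. PLXNA1 had 433 and 605 reads (log2 0.25, interval 0.07 to 0.43), which passed the read test at under 2-fold, and PLXNA3 had 119 and 161 reads (log2 0.20).

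SEMA4D (CD100), a transmembrane semaphorin of leukocytes, had the most semaphorin reads. It had 1008 and 1473 reads and 2.49 and 3.19 FPKM, the latter computed over 29529 nt, while its main transcript has 4562 nt. Per kilobase of main transcript its levels were 16.1 and 20.6, next after PLXNB2 at 29.2 and 37.9. SEMA4D, with a log2 difference of 0.31, SEMA4A, a semaphorin of immune cells with 358 and 526 reads (log2 0.32), and SEMA4C, a ligand of PLXNB2 with 396 and 370 reads (log2 -0.33), each passed the read test at under 2-fold. SEMA4C was thus opposite in sign to SEMA4A and SEMA4D. SEMA6B, a transmembrane semaphorin, had 79 and 63 reads (log2 -0.56, interval -1.06 to -0.07) and passed narrowly, with an adjusted p of 0.0486 in the exact binomial test. SEMA6C, of the same class, fell from 33 reads to 18 (log2 -1.09, interval -2.03 to -0.24). SEMA3G had 226 and 231 reads, and SEMA7A, the membrane-anchored ligand of PLXNC1, had 89 and 109 reads. SEMA3F had 27 and 20 reads and SEMA4B had 29 and 25 reads. These 4 genes had intervals that included 0. All 20 semaphorins together had 2377 and 3117 reads, a log2 difference of 0.15 (interval 0.08 to 0.23).

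Among the plexins, PLXNC1 and PLXNA2 rose. PLXNC1, the receptor of SEMA7A, lies on chromosome 12 (94148723 to 94307675, plus strand). It had 101 and 278 reads (0.603 and 1.45 FPKM), a log2 difference of 1.22 (interval 0.89 to 1.57, adjusted p = 1.42e-13 in the exact binomial test). Exons of CEP83 on the opposite strand cover 1.8% of its exonic bases, and CEP83 had 315 and 405 reads. Exons of AC073655.2, also on that strand, cover 2.2%, and it had 27 and 43 reads, so with strand use not stated a part of the PLXNC1 reads is uncertain. PLXNA2, an A-type plexin, had 6 and 21 reads (log2 1.49), with a wide interval of 0.21 to 3.17.

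PLXNB2, a B-type plexin that binds class 4 semaphorins, was the most abundant axon guidance gene. It lies on chromosome 22 (50274979 to 50307627, minus strand) and had 2567 and 3802 reads (15.7 and 20.4 FPKM). These were 34.7% and 38.1% of the reads on all 75 genes, and its FPKM exceeded that of 80.8% and 86.0% of the 10535 genes expressed in both libraries. Its log2 difference was 0.33 (interval 0.26 to 0.40), past the read test and well under 2-fold. PLXNB1, a SEMA4D receptor, had 211 and 284 reads (log2 0.19), and PLXND1, a SEMA3E receptor, had 333 and 405 reads (log2 0.05). Neither passed the read test. All 7 plexins with at least 10 reads had a log2 difference above 0, though the intervals of PLXNA3, PLXNB1 and PLXND1 included 0. The 9 plexins together had 3770 and 5562 reads, a log2 difference of 0.32 (interval 0.26 to 0.38) in which PLXNB2 holds most reads.

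**Figure D2:**
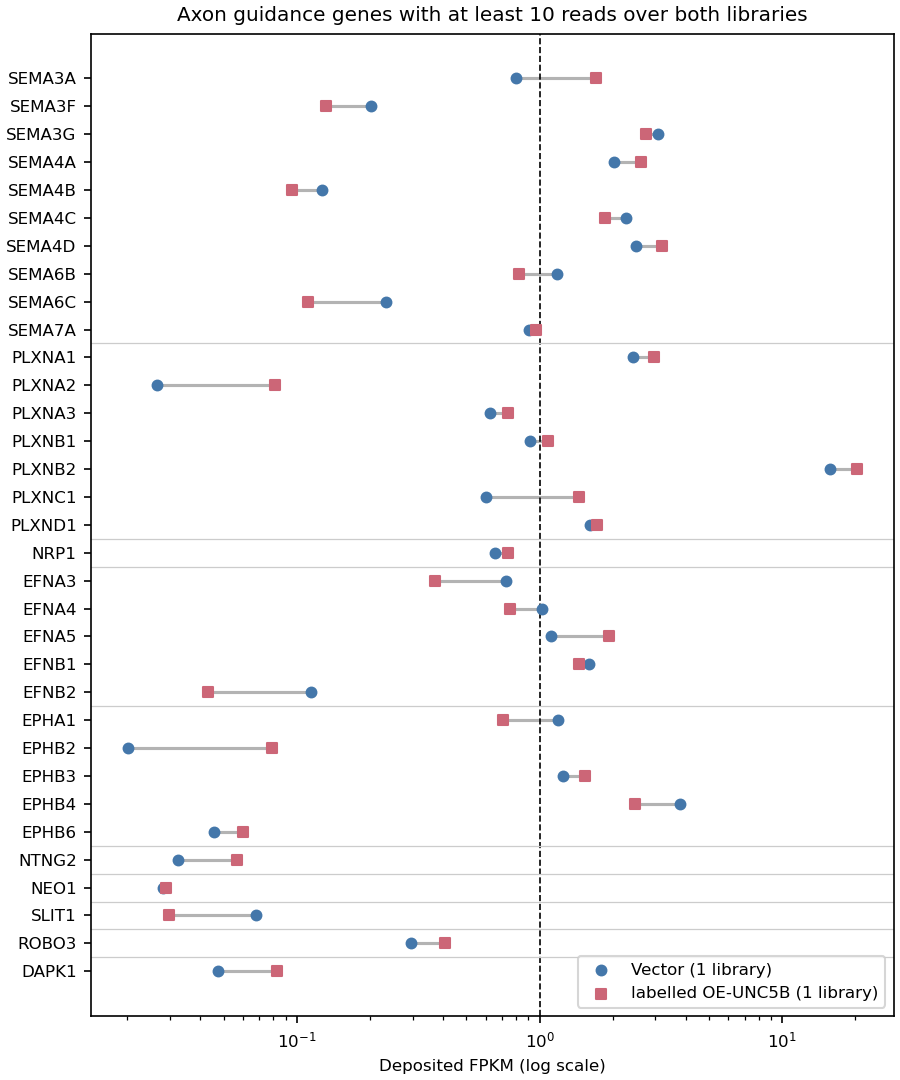
Deposited FPKM (x axis, log scale) of the 33 axon guidance genes with at least 10 reads in all (y axis, grouped by family), with 1 symbol for each library. PLXNB2 lies apart at 15.7 and 20.4 FPKM, and the dashed line marks 1 FPKM.

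EPH receptors moved the other way from the plexins when summed. EPHB4, a receptor of EFNB2, was the most abundant, with 493 and 365 reads (3.8 and 2.47 FPKM). Its log2 difference was -0.67 (interval -0.87 to -0.47, adjusted p = 1.07e-10 in the exact binomial test), under 2-fold. EPHA1 had 112 and 76 reads (log2 -0.79, interval -1.24 to -0.36), which also passed the read test at under 2-fold. EPHB3 had 89 and 125 reads, and its interval of -0.15 to 0.66 included 0. EPHB2 rose from 4 reads to 18, or 0.0201 and 0.0793 FPKM, with an interval of 0.33 to 3.96. EPHB6 had 6 and 9 reads, too few for a narrow interval (-1.30 to 2.12). The 14 EPH receptors together had 709 and 593 reads, a log2 difference of -0.49 (interval -0.65 to -0.33). EPHB4 and EPHA1 held most of those reads. Exons of SLC12A9 and ZYX on the opposite strand overlap EPHB4 by 69 nt and EPHA1 by 82 nt. SLC12A9 had 1272 and 1366 reads and ZYX had 2484 and 3315. With strand use not stated, a part of the EPHB4 and EPHA1 reads is uncertain, and its size was not measured.

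Of the ephrins, EFNA5 had 113 and 222 reads (log2 0.73, interval 0.40 to 1.08), past the read test and under 2-fold. EFNB1, a ligand of EPHB receptors, had 73 and 75 reads, and EFNA4 had 38 and 32 reads. EFNA3 fell from 31 reads to 18 (interval -1.95 to -0.14, adjusted p = 0.0450 in the exact binomial test), to 0.499 times its Vector level. With library totals its log2 difference was -0.96 and it was not called. Exons of AL691442.2 on the same strand cover 43.9% of the exonic bases of EFNA3 and 15% of those of EFNA4, and had 0 reads, so the reads of both ephrins are uncertain. EFNB2, the ligand of EPHB4, had 7 and 3 reads. The 8 ephrins together had 264 and 350 reads, a log2 difference of 0.17 (interval -0.06 to 0.41).

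**Figure D3:**
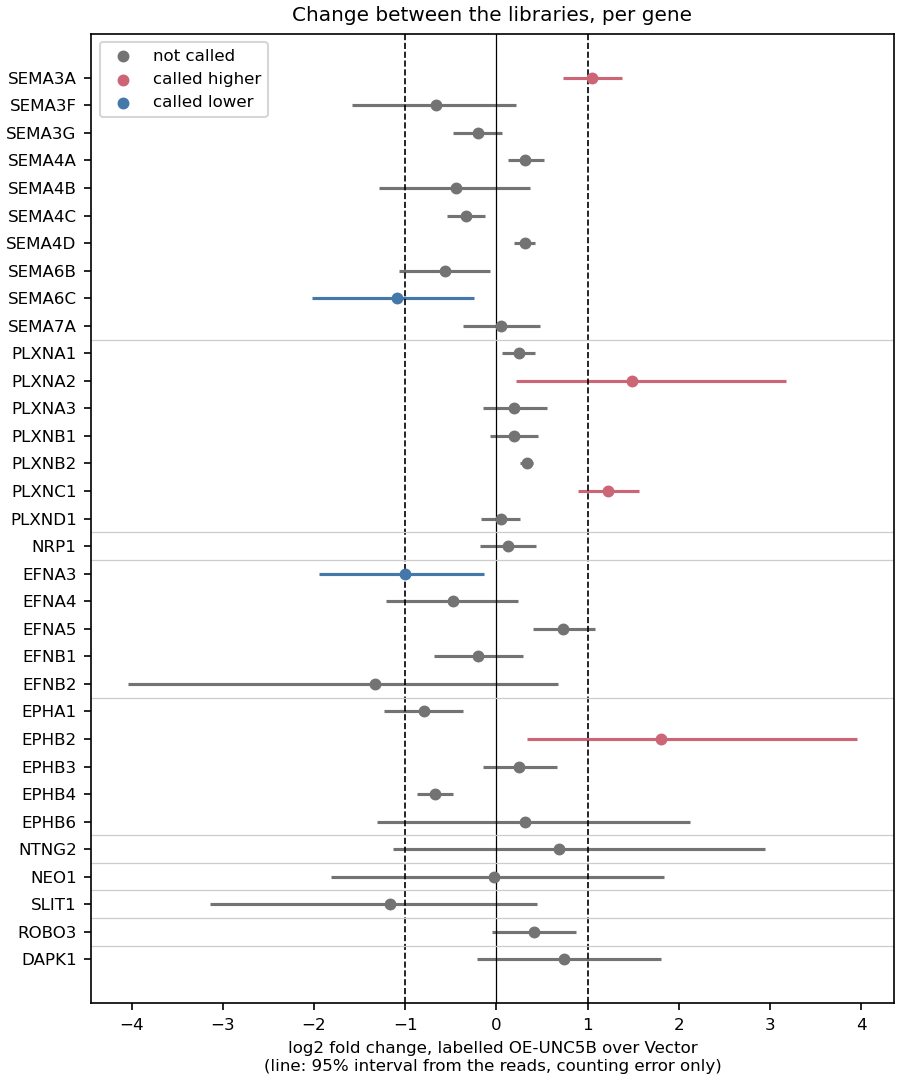
Log2 difference of the library labelled OE-UNC5B from Vector (x axis) for the 33 tested axon guidance genes (y axis, grouped by family), with lines for the 95% interval of the reads. Of these, 4 called higher are red and 2 called lower are blue, and dashed lines mark 2-fold.

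The netrin axis, to which UNC5B belongs, was nearly silent. Netrin-1 (NTN1), a ligand of UNC5B, had 8 and 0 reads, too few for the test. NEO1 had 6 and 7 reads, UNC5C had 0 and 1 reads and UNC5D had 1 and 0 reads. The UNC5, DCC and NEO1 genes thus held 7 and 8 reads in all. NTNG2, a membrane-anchored netrin-G, had 4 and 8 reads, and NTNG1 had 2 and 0 reads. DAPK1, a death-associated kinase that acts downstream of UNC5 receptors, had 14 and 28 reads, and its interval of -0.21 to 1.80 included 0.

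By deposited FPKM, SLIT, ROBO and RGM genes were also low. ROBO3, a receptor that modulates SLIT responses, had the most reads of them, 67 and 105 reads (0.296 and 0.407 FPKM). Per kilobase of main transcript its levels were 1.08 and 1.48. Its interval of -0.04 to 0.88 included 0. SLIT1 had 10 and 5 reads, and ROBO1 had 1 and 0 reads. RGMA and RGMB, ligands of NEO1, had 5 and 0 reads and 6 and 3 reads.

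The 20 genes with 1 to 9 reads lay mostly in Vector. Reads were in Vector alone for 15 genes (75%), in the library labelled OE-UNC5B alone for 4 (20%) and in both for RGMB. They summed to 51 and 13 reads. Of all 6754 genes with 1 to 9 reads, 28.1% and 27.6% were seen in Vector alone and in the other library alone, and 36.6% and 24.6% of the protein-coding ones. SEMA4F, a transmembrane semaphorin, had 8 and 0 reads, and SEMA3C had 4 and 0 reads. EPHA2, SEMA3D, EPHA7, SEMA4G, EFNA2, EFNB3 and NTN4 had 1 to 3 reads, all in Vector, and SEMA3B and NTN5 had 0 and 2 reads and 0 and 1 reads. SEMA4G and RGMB share 22.9% and 40.4% of their exonic bases with genes on the opposite strand. PLXNB3 went the other way with 0 and 6 reads, and 20.4% of its exonic bases are shared with SRPK3, so its reads are uncertain. Markers of other cell types were counted beside them. Fibroblast markers had 46 and 15 reads over 10 genes (DCN, PDGFRA, FBLN1 and POSTN at 0), and COL1A1 and TWIST1 fell. Over 8 markers of HEK293, the kidney line behind the packaging cells HEK-293T, reads were 14 and 2 (KRT8 and PAX2 among 5 at 0). Over 10 endothelial markers they were 10 and 7 (CDH5 and KDR among 7 at 0), with VWF at 1 and 2 reads. Over 10 neuronal markers they were 45 and 33 (RBFOX3 and STMN2 among 5 at 0), of which TUBB3, not called, held 40 and 27 reads, while SNAP25 had 1 and 4 reads and ELAVL4 had 0 and 2 reads. The other endothelial and neuronal markers had too few reads for the test. The part of the markers in the result was not tested.

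**Figure D4:**
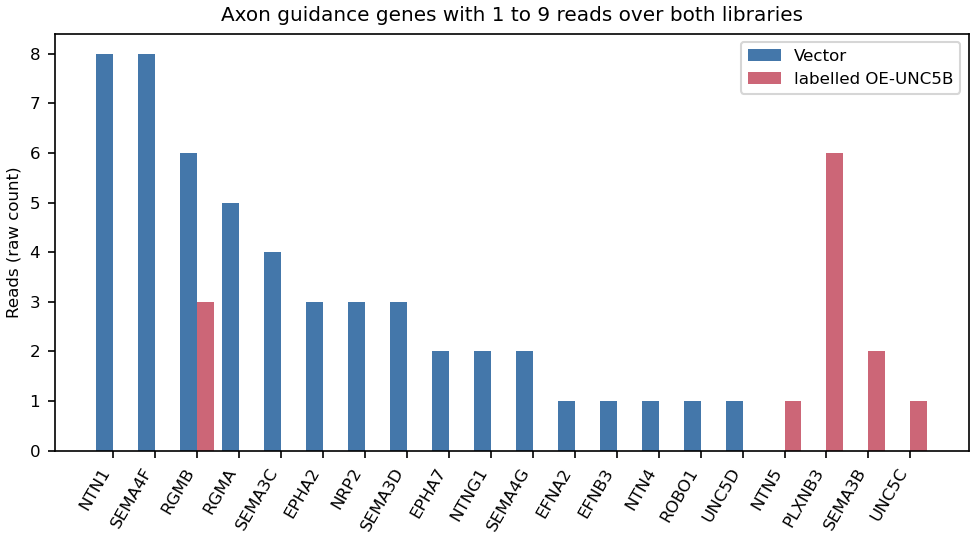
Raw reads (y axis) of the 20 axon guidance genes with 1 to 9 reads in all (x axis), with 1 bar for each library. The reads of 15 genes, NTN1 and SEMA4F at 8 each among them, were all in Vector.

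Signalling partners were more abundant, and most of those tested were not called. Of 120 genes in 5 lists of effectors and co-receptors, 94 were tested, 6 were higher and 3 lower (9.57%, against 6.78% of all tested genes), with a median log2 difference of 0.15. With an assumed coefficient of variation of 0.1 between libraries 6 and 1 were called, with 0.2 2 and 0, and with 0.4 0 and 0. The calls among all 15384 tested genes were then 418 and 376, 131 and 121, and 7 and 8. Among 22 tested semaphorin and plexin effectors, 3 were higher and 1 lower (18.2%). DPYSL2 (CRMP2), which relays SEMA3A signals to microtubules, rose from 552 reads to 1494 (log2 1.20, interval 1.06 to 1.34). FYN, a Src family kinase in SEMA3A signalling, rose from 651 reads to 1773 (log2 1.21, interval 1.08 to 1.34). ARHGEF12, which B-type plexins bind, rose from 109 reads to 269 (log2 1.06). Under 2-fold, MICAL1 and RASA1 passed the read test with positive log2 differences (0.29 and 0.99). CFL1, RAC1, LIMK1 and LIMK2 passed it with negative ones (-0.41, -0.40, -0.25 and -0.48). The median of this list was 0.01.

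The list of semaphorin co-receptors and non-plexin receptors also holds VEGFA, a secreted growth factor that binds NRP1 and is not itself a receptor. Of its 12 tested genes, VEGFA was the 1 called higher and TREM2 the 1 called lower (16.7%, against 6.78% of all tested genes). LILRB4, ITGB1 and LILRB2 passed the read test with positive log2 differences under 2-fold. VEGFA went from 844 reads to 5503 (log2 2.47, interval 2.36 to 2.57), while its receptors KDR and FLT1 had 0 and 0 reads and 1 and 1 reads. TREM2, a myeloid receptor, went from 243 reads to 106 (log2 -1.43, interval -1.78 to -1.10), and its adaptor TYROBP had 387 and 464 reads (log2 0.03). ITGB1, an integrin subunit bound by SEMA7A, had 1610 and 2145 reads (log2 0.18). In the other lists, 1 of 30 Eph and ephrin effectors was lower (3.33%), RGS3 with 19 and 7 reads. Of 13 Slit and Robo effectors, 1 was higher (7.69%), SDC3, a syndecan, with 9 and 116 reads. Of 17 tested genes in the netrin and RGM list, 1 was higher (5.88%), FLRT1 with 31 and 110 reads. RND1, a GTPase that binds plexins, was the lower semaphorin effector (26 and 13 reads). RGS3, SDC3, FLRT1, RND1, KDR, FLT1, TYROBP, ITGB1, LILRB4 and LILRB2 were named after their values were seen. So were MICAL1, RASA1, CFL1, RAC1, LIMK1 and LIMK2.

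**Figure D5:**
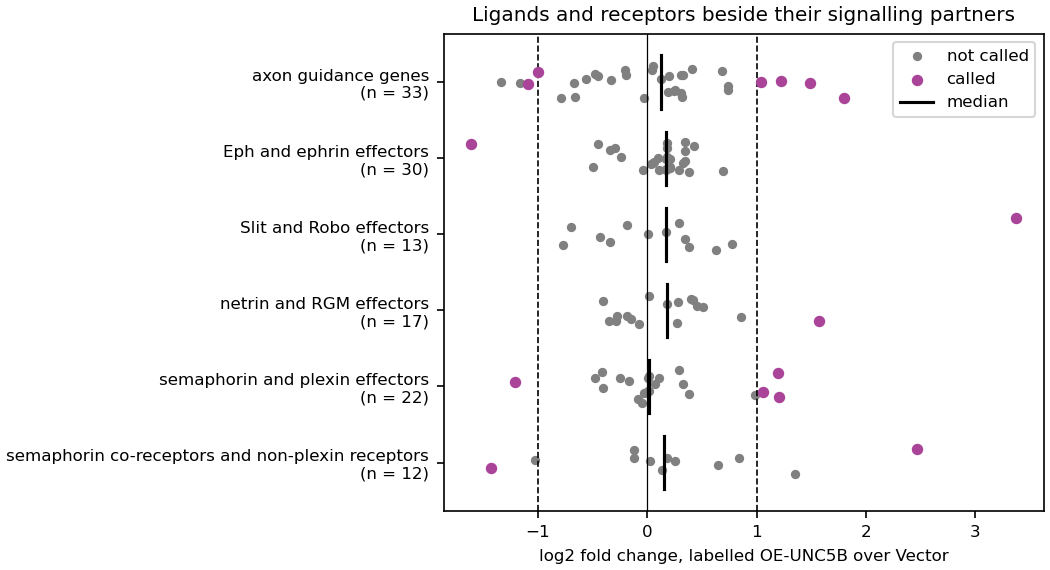
Log2 difference of the library labelled OE-UNC5B from Vector (x axis) for each tested axon guidance gene and each tested gene of 5 lists of effectors and co-receptors (y axis), with called genes colored and black bars for medians. The medians lie between 0.01 and 0.18, and SDC3 (3.38) and VEGFA (2.47) lie farthest right.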

How the data were processed

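Sequencing covered 1 Vector library and 1 labelled OE-UNC5B. The authors deposited unnormalized counts of reads per gene, and FPKM scaled to gene length and counted reads. The submitters' processing notes list bcl2fastq 2.19, HISAT2 2.0.4, StringTie 1.3.0 and GRCh38. The counter, its annotation and its strand setting are not given in the sources used here. The length behind the FPKM was a median of 2.09 times the main (Ensembl canonical) transcript in GENCODE 44, which lowers FPKM for genes with long isoforms.

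Scaling used TMM (edgeR 4.0.16 in R 4.3.3, factors 0.984 and 1.02). A minimum of 10 reads in all was required for the two-sided exact binomial test (scipy 1.17.1), adjusted by Benjamini-Hochberg. For log2 differences 0.5 reads were added, and intervals are Clopper-Pearson (95%). The quasi-likelihood test of edgeR could not be fitted with 1 library per group. Scripts were tested on simulated counts. The alternatives tried were totals in place of TMM, size factors of DESeq2 1.42.0, deposited FPKM plus 0.1 or 1, other read minimums, 2 reads added, an assumed coefficient of variation (0.1, 0.2, 0.4) in edgeR's exact test, and other folds. Named genes were UNC5B, axon guidance genes with reads, and called pathway genes at 10 CPM (counts scaled to library size) or more in either library, with exceptions stated. The genes and lists were chosen with earlier results of these data known.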

Additional observations from a re-analysis of the deposited data

How the results depend on the processing

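Against 4 higher and 2 lower axon guidance genes, 4 and 1 were called with library totals, DESeq2 size factors or 2 reads added, where EFNA3 dropped under 2-fold. Without a filter 3 and 3 were called (NTN1, SEMA4F and SEMA6C lower), and 2 and 1 with 50 reads required, which left 23 genes tested. With FPKM 17 genes were tested, which left out EPHB2, PLXNA2, SEMA6C and EFNA3, and 2 and 0 were called with 0.1 added (SEMA3A and PLXNC1) and 0 and 0 with 1 added. At a coefficient of variation of 0.1, 2 and 0 were called (SEMA3A and PLXNC1), and 0 and 0 at 0.2 or 0.4. The axon guidance median was -0.334 without a filter, against 0.124, was 0.218 with FPKM plus 0.1, and was above 0 under the other alternatives. By fold alone 4 were lower (EFNA3, EFNB2, SEMA6C and SLIT1). At 1.5-fold 5 were higher, with EFNA5 added, and 4 lower (EFNA3, EPHA1, EPHB4 and SEMA6C). NEO1 reversed with library totals (log2 0.017), and the other 32 tested genes kept their sign wherever tested.

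Over all tested genes (522 higher, 521 lower), 281 were lower with FPKM plus 0.1, 165 higher and 130 lower with FPKM plus 1, and 297 lower with 50 reads. At a coefficient of variation of 0.1, 418 and 376 were called, at 0.2 131 and 121, and at 0.4 7 and 8. By fold alone 792 were higher, and at 1.5-fold 1300 and 1258 were called. The median log2 difference of all tested genes was 0.041 with library totals, 0.036 and 0.029 with FPKM plus 0.1 and 1, and -0.037 with no filter. Of pathway genes (6 higher, 3 lower), 1 was lower with FPKM plus 0.1, with 50 reads and at 0.1, 3 higher and 1 lower with FPKM plus 1, 2 and 0 at 0.2, 0 and 0 at 0.4, and 12 higher at 1.5-fold, and their median, 0.153, was 0.056 with no filter, 0.201 with library totals and 0.215 with FPKM plus 0.1. Expressed axon guidance genes numbered 20 at 0.5 FPKM, 17 at 1 FPKM in either library, 26 at 1 CPM and 19 on the main transcript (chosen after seeing the data), against 11. Family sums kept their sign with library totals and DESeq2 size factors. Beyond each setting's construction, the cause was not tested. No paired analysis was possible because each group had a single library, and none could be left out.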

Other observations

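Neuronal adhesion genes outside the name rule (6 SLITRK genes, 6 contactins, 5 contactin-associated genes and UNC5CL, 18 in all) were looked up after values were seen. No reads were present for 12 of them, and 5 were tested. CNTN4, an axonal adhesion molecule, was the 1 gene called of the 5, against 6.78% of all tested genes, with 179 and 431 reads, Vector first and the library labelled OE-UNC5B second (log2 1.03, 95% interval 0.78 to 1.29, counting error only). SLITRK4 had 71 and 121 reads (log2 0.53), CNTNAP1 had 18 and 35 reads (log2 0.70) and SLITRK5 had 52 and 48 reads (log2 -0.35). UNC5CL, a relative of the UNC5 receptors, had 11 and 28 reads (log2 1.07, adjusted p = 0.0712 in the exact binomial test).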
